A study of Mus musculus with 9 samples.

Results

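The G2/M and mitosis genes described here are 38 genes, chosen by gene symbol from a list of regulators of mitotic entry, the spindle, the kinetochore, the spindle checkpoint and cytokinesis. All 38 were found among the 54532 genes of the deposited count table, and all 38 passed the filter on low counts that left 14471 genes to test. The RNA came from HC11, an epithelial line of the mouse mammary gland, labelled as strain C57BL/6 and grown in DMEM with 10% fetal bovine serum, and was sequenced in 3 groups of 3 libraries. EpPT2 and EpPT1 were exposed to 660 nm light from a 10 mW source, and Ctrl was untreated. The sample labels give 20 J/cm2 for EpPT2 and 10 J/cm2 for EpPT1, whereas the treatment protocol gives 0.5 and 1 J/cm2, and the group names are therefore used without a fluence. The light source is a laser in the protocol but an LED in the design text, and the series title speaks of human breast epithelium although organism and gene IDs are mouse. How long after exposure the cells were lysed is not stated in these sources. HC11 is a single immortalised line. Whether the libraries of a group are separate cultures is not stated, and the p-values therefore cover the spread between these libraries alone, which may be technical.

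Entry into mitosis is driven by the kinase Cdk1 bound to cyclin B, which Wee1 and Pkmyt1 hold inactive by phosphorylation and the Cdc25 phosphatases release. Kinetochores then attach chromosomes to spindle microtubules, the spindle checkpoint delays anaphase until all are attached, and the anaphase-promoting complex with Cdc20 ends mitosis by marking cyclin B for destruction. Most of these genes are transcribed late in the cycle under Foxm1, B-Myb with the MuvB complex, and the CCAAT-binding factor NF-Y, so their RNA is used as a sign of how many cells in a culture are dividing.

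Total counts were 14549787 to 17228929 per library. Of 5 luminal epithelial markers, the keratins Krt8 and Krt18 had 559 to 836 and 760 to 1127 CPM (counts scaled to the TMM-adjusted library size), Krt19 had 245 to 638, Epcam 17.7 to 44.8 and the cadherin Cdh1, a defining epithelial gene, only 0.23 to 0.78 CPM. The largest difference between libraries crossed the groups. EpPT2 2, EpPT2 3, EpPT1 3 and Ctrl 3 drew 6.06% to 7.48% of all reads counted from mitochondrial genes, against 2.74% to 3.62% in EpPT2 1, EpPT1 1, EpPT1 2, Ctrl 1 and Ctrl 2. They are called here the high-mitochondrial and low-mitochondrial libraries. EpPT2 2 and EpPT2 3 were also much alike, with a chi-square per gene of 4.99 between them, against 53.5 to 165 for the other pairs within a group. The SDs and overlaps given below for EpPT2 thus rest on this like pair and EpPT2 1.

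The promoters of these genes were examined for the sequences known from late cell-cycle genes. RefSeq windows of 300 bases (250 before to 50 after the start site, GRCm38.p6) were at hand for 30 of the 38 genes. The NF-Y box CCAAT, on either strand, was in 24 of the 30 genes (80.0%), against 41.1% of 27025 genes with a window. TTTGAA, the core of the cell cycle genes homology region bound by MuvB, was in 22 (73.3%), against 20.2%, and both were in 20 (66.7%), against 7.97%. The E2F-like site TTCCCGC was in 0 of the 30 and in 5.29% of all genes. In Cdca8, 1 TTTGAA overlaps a CCAAT on the other strand, and the median GC content of the windows was 59.0% for the members and 52.7% for all windows. Ndc80, Bub1 and Hmmr, which were among the lowest in EpPT2 relative to Ctrl, are shown with Plk1, Mki67 and Cdk1, which were not lower there. Each sequence runs 5′ to 3′ on the gene's strand, with CCAAT and TTTGAA in capitals, and ATTGG and TTCAAA where they lie on the other strand.
Ndc80, chr17:71526808-71527107, minus strand: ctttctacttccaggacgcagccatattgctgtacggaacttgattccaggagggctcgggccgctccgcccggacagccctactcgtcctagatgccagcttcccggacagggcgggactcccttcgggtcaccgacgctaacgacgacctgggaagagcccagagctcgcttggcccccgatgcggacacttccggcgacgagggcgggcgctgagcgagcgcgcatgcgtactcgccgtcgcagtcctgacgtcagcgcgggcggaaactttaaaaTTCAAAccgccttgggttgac
Bub1, chr2:127831810-127832109, minus strand: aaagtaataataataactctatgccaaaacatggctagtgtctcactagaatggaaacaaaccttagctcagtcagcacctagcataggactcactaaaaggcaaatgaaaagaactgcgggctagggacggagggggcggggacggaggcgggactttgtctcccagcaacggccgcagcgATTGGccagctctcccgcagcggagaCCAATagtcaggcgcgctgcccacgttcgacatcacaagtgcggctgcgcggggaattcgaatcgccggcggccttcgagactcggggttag
Hmmr, chr11:40733388-40733687, minus strand: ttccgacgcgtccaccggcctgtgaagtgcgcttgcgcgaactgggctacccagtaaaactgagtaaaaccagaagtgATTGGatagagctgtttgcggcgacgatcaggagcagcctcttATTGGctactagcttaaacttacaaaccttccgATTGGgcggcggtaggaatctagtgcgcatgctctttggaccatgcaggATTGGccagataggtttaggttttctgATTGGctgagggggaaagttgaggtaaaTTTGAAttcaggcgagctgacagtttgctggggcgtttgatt
Plk1, chr7:122159185-122159484, plus strand: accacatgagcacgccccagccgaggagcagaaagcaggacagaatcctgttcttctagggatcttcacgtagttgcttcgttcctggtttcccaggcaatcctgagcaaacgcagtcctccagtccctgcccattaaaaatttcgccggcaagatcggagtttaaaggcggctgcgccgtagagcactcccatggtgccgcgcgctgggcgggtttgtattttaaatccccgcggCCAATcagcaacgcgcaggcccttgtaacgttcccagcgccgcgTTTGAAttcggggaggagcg
Mki67, chr7:135716330-135716629, minus strand: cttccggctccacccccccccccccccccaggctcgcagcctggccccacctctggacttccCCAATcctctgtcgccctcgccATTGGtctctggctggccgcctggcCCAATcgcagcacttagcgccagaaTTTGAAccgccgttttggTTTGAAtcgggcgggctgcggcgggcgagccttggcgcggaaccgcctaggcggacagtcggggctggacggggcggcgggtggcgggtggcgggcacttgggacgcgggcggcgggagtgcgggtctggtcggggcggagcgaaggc
Cdk1, chr10:69352863-69353162, minus strand: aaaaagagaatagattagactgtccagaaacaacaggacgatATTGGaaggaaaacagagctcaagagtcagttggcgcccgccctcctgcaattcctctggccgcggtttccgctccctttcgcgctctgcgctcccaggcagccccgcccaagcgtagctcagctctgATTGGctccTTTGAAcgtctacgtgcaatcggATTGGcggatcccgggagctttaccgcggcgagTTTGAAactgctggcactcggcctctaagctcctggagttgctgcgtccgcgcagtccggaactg
Hmmr holds 5 CCAAT boxes and 1 TTTGAA, Cdk1 and Mki67 hold 3 and 2 each, and Plk1 holds 1 of each. Bub1 holds 2 CCAAT boxes without TTTGAA, and Ndc80 holds 1 TTTGAA without CCAAT. The windows of Birc5, Mad2l1, Nuf2 and Nusap1 hold neither. A match is a description of these letters only.

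All 38 genes were well above the detection limit, with raw counts from 234 for Cdc25c to 20337 for Mki67 in a library. Per kilobase of gene model, Mki67, whose protein coats mitotic chromosomes, was the most abundant at 91.2 CPM per kb over the 9 libraries. Ube2c, the ubiquitin-conjugating enzyme of the anaphase-promoting complex, followed with 81.3, then Cdc20 with 59.3, the DNA topoisomerase Top2a with 59.0, cyclin B1 (Ccnb1) with 54.3 and Cdk1 with 52.6 CPM per kb. The checkpoint kinase Ttk was the least abundant at 6.16, below the midzone kinesin Kif23 at 10.2, the centromeric histone Cenpa at 10.3 and Ndc80 at 10.5 CPM per kb. Cdc20 shares its locus with Elovl1 on the opposite strand, which drew 113% as many counts, and Kif20a shares its locus with Cdc23 (81.8%). The strand setting of the counting is not stated, so the levels of this pair of genes are uncertain, and to a lesser degree those of Ccna2, Cdca8, Nusap1, Pkmyt1 and Cdc25b, whose opposite-strand neighbours drew 15.1% to 24.5% as many counts.

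**Figure D1:**
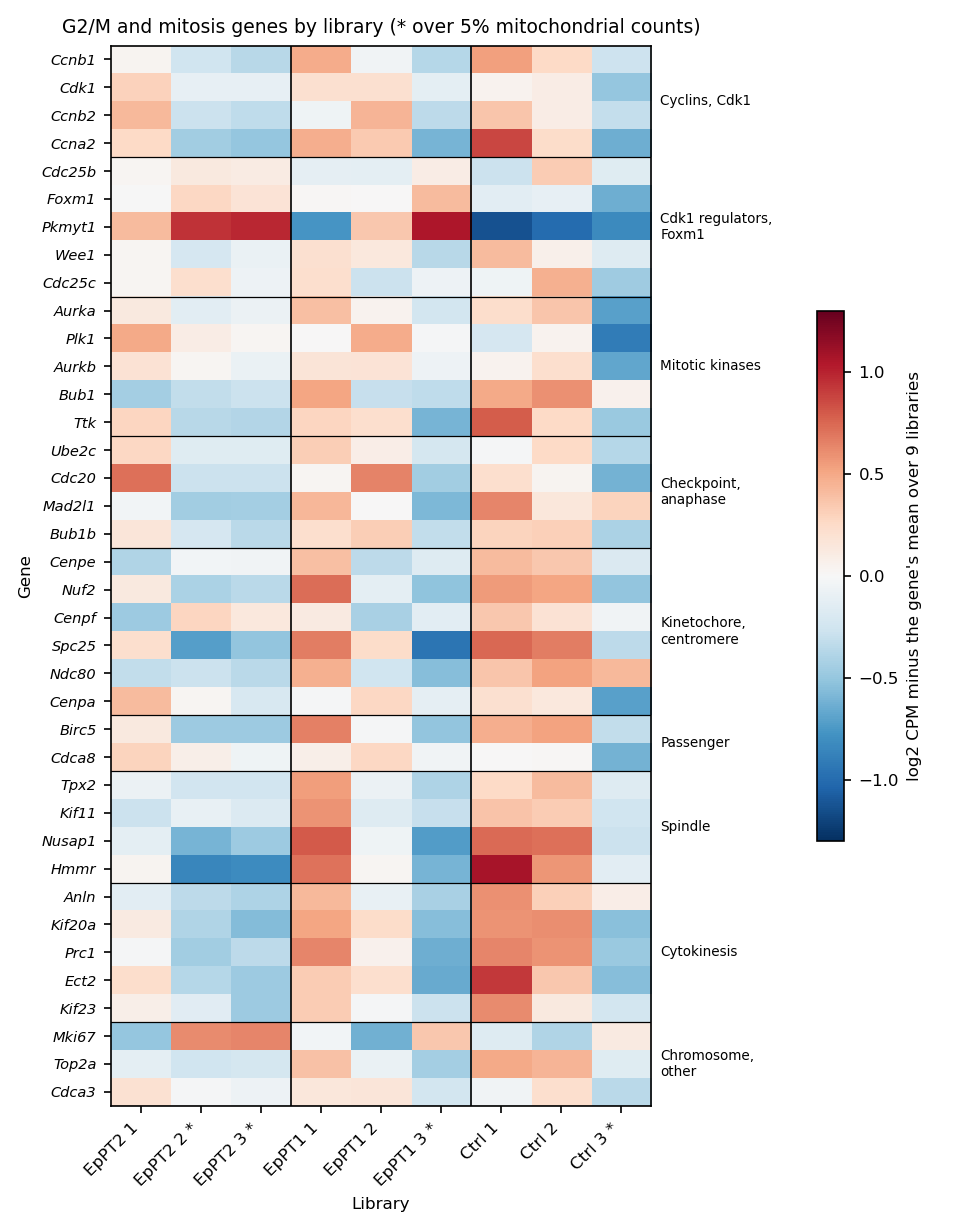
Level of each of the 38 genes in each library, as log2 CPM minus the gene's mean over the 9 libraries, with genes in rows by role and libraries in columns by group. Most genes are low in the 4 starred libraries, which have over 5% mitochondrial counts, whichever group they belong to. Mki67 and Pkmyt1 depart most from that order.

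The genes varied together across libraries, and most were lower in the high-mitochondrial libraries of every group. Summed over the 38 genes without Mki67, the level was 4705, 4070 and 3971 CPM in EpPT2 1 to 3, 5828, 4648 and 3741 CPM in EpPT1 1 to 3, and 5907, 5605 and 3784 CPM in Ctrl 1 to 3. In each group the high-mitochondrial libraries were the lowest in this sum, and the groups overlapped. With Mki67 included the sums were 5323, 5411 and 5334 CPM in EpPT2, 6680, 5215 and 4858 CPM in EpPT1, and 6689, 6273 and 4731 CPM in Ctrl, and the order by mitochondrial share was then absent within EpPT2. In 22 of the 38 genes the 4 high-mitochondrial libraries were the 4 lowest of the 9, as they were in 2604 of the 14471 tested genes. The mean was lower in the high-mitochondrial than in the low-mitochondrial libraries for 33 of the 38 genes, against 52.4% of tested genes, and the median ratio was 0.707 for these genes and 0.969 for all tested genes. The kinetochore gene Spc25 had the lowest ratio at 0.455, followed by Hmmr at 0.462, cyclin A2 (Ccna2) at 0.500 and the spindle gene Nusap1 at 0.507.

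The same difference was present without any exposure. Ctrl 3 lay below the mean of Ctrl 1 and Ctrl 2 for 36 of the 38 genes, with a median ratio of 0.647 and a range of 0.427 to 1.31, and the exceptions were Mki67 and Pkmyt1. EpPT1 3 lay below the mean of EpPT1 1 and EpPT1 2 for 34 genes, with a median ratio of 0.681, and the mean of EpPT2 2 and EpPT2 3 lay below EpPT2 1 for 29 genes, with a median ratio of 0.779. All tested genes gave medians of 0.959, 0.963 and 0.965 in these contrasts, and 52.9%, 52.4% and 52.2% of them were lower. A lower RNA level in such bulk samples can mean fewer dividing cells or less RNA per dividing cell, and these cannot be told apart. Summed over 7 blood and immune markers, the level was 88.0 to 103 CPM in the high-mitochondrial and 9.74 to 46.1 CPM in the low-mitochondrial libraries, nearly all of it from the lysosomal gene Cd68. The macrophage gene Adgre1 had no count in any library. The 7 fibroblast markers summed to 1822 to 3295 CPM in the high-mitochondrial and 743 to 2148 CPM in the low-mitochondrial libraries. Nearly all of it came from Dcn, with 733 to 3288 CPM. Pdgfra reached at most 8.19 CPM and the collagen Col1a1 at most 3.34 CPM, the other markers were lower, and Thy1 had no count. The 4 basal epithelial markers, mostly Krt14, summed to 19.4 to 23.6 CPM in the high-mitochondrial and 4.72 to 9.81 CPM in the low-mitochondrial libraries. What part these differences have in the levels of the mitotic genes was not tested.

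Mki67 went the other way. It had 617, 1342 and 1363 CPM in EpPT2 1 to 3, 853, 567 and 1117 CPM in EpPT1 1 to 3, and 781, 668 and 947 CPM in Ctrl 1 to 3. Its 4 highest libraries were the 4 high-mitochondrial ones, the only one of the 38 genes with that order, which 16.5% of tested genes had. Its ratio of high-mitochondrial to low-mitochondrial means was 1.71, so this common proliferation marker and most genes of the list were high in different libraries. Pkmyt1 had a larger ratio of 1.97, while Foxm1 had 1.11, and Cenpf and Cdc25b had 1.05 each.

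In EpPT2 relative to Ctrl, the comparison with the higher labelled fluence, the group was split. The kinase gene Pkmyt1 was 3.44-fold higher, Foxm1 and Plk1 were somewhat higher, and kinetochore, spindle and cytokinesis genes were mostly lower, by up to 2.09-fold for Hmmr. None of these differences passed edgeR's quasi-likelihood test after adjustment over all 14471 genes, which called 0 genes (0%), with a lowest adjusted p of 0.376 and 1763 genes at an unadjusted p under 0.05. limma-voom also called 0 genes, and DESeq2 called 61. At an unadjusted p under 0.05, edgeR gave 5 of the 38 genes as lower (Ndc80, Bub1, Hmmr, Anln and Mad2l1), where 5.31% of tested genes were, and 1 as higher (Pkmyt1), where 6.88% were. The EpPT2 libraries all lay below the Ctrl libraries for 4 genes (Ndc80, Bub1, Anln and Mad2l1), as for 10.9% of tested genes, and all above for Pkmyt1 and Foxm1, as for 12.3%. The fold change was below 0 on the log2 scale for 25 of the 38 genes, against 52.1% of tested genes, and the median was −0.36, against −0.03 for all tested genes. It was −0.5 or less for 11 of the 38 genes, against 17.6% of tested genes, and 0.5 or more for 2, against 20.7%. Single libraries moved these figures. The median was −0.53 without Ctrl 3, with 11 members at an unadjusted p under 0.05 in either direction, against 15.1% of genes in that fit. It was −0.09 without Ctrl 1, with 2 members against 6.73% of genes. Without EpPT2 2 or without EpPT2 3 it was 3 members, against 5.60% and 5.75% of genes, so these smaller counts lie near the share of all genes.

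**Figure D2:**
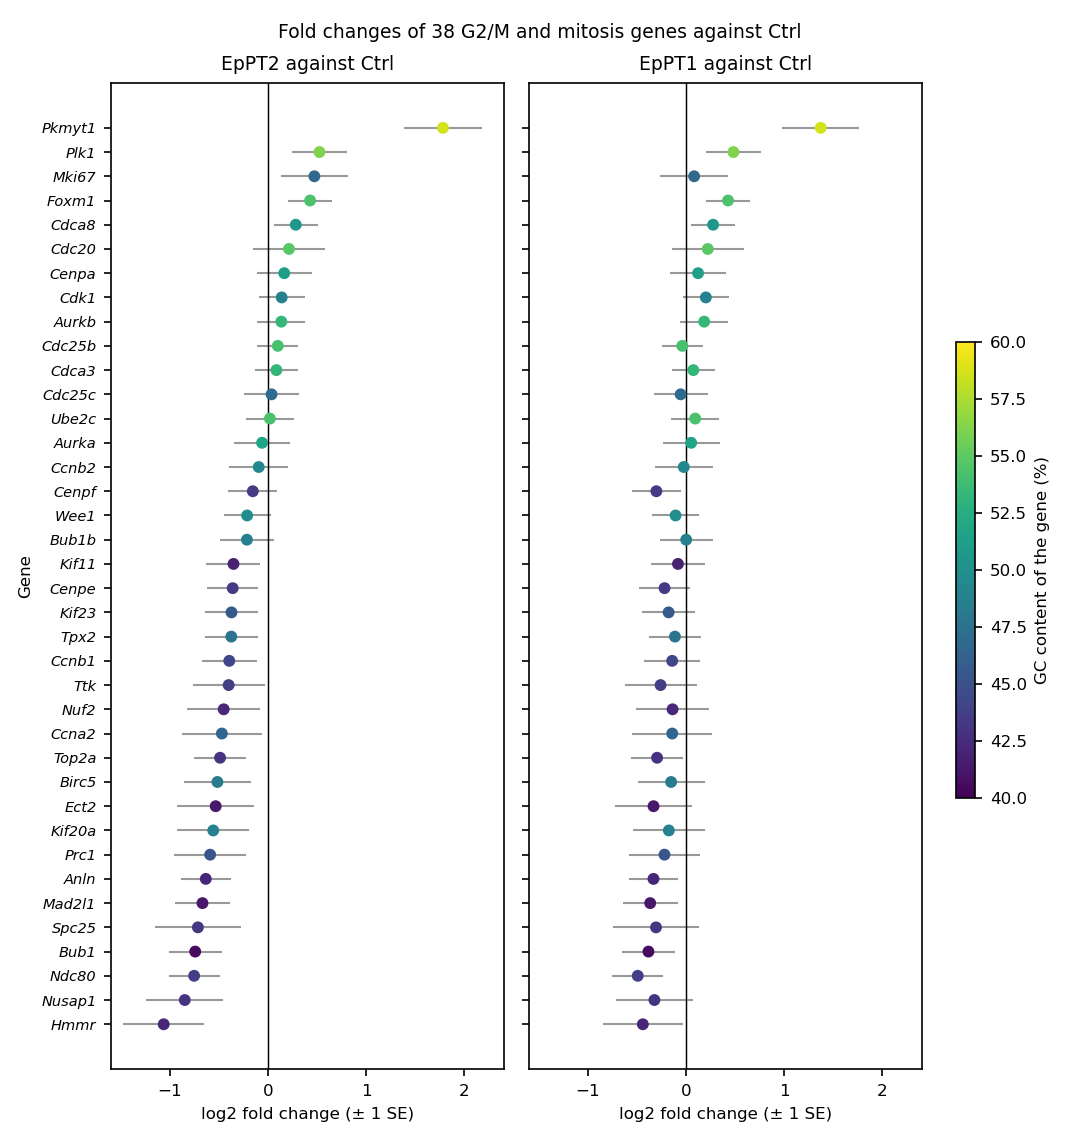
Log2 fold change against Ctrl for each of the 38 genes (rows), in EpPT2 (left) and EpPT1 (right), with bars of 1 standard error and colour by the GC content of the gene. Pkmyt1 is highest in both at 1.78 and 1.37, and the lowest in EpPT2 is Hmmr at −1.06; both panels share the Ctrl libraries.

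Regulators of Cdk1 held the member with the largest difference. Pkmyt1, a membrane-bound kinase that inhibits Cdk1 (ENSMUSG00000023908, chromosome 17, 23726336 to 23736735, plus strand, GRCm38), had 62.9, 90.6 and 93.3 CPM in EpPT2, 27.8, 60.2 and 98.0 CPM in EpPT1, and 21.5, 23.6 and 26.7 CPM in Ctrl. Every exposed library lay above every Ctrl library, though EpPT1 1 only just. The means were 82.3 ± 16.9 CPM in EpPT2 and 23.9 ± 2.62 CPM in Ctrl (SD, n = 3 each), a log2 fold change of 1.78 (SE 0.40), with an unadjusted p of 0.0011 and an adjusted p of 0.376 in edgeR's quasi-likelihood test. DESeq2, which called 61 genes (0.422%), gave it an adjusted p of 0.018, and edgeR without the filter on low counts, which called 268 genes (0.933%), an adjusted p of 8.1e-05; Pkmyt1 was the only member called by either. Over all alternatives its adjusted p ranged from 8.1e-05 to 0.919 and its log2 fold change from 1.04 to 1.94. Pkmyt1 is the most GC-rich of the 38 genes at 58.7%. Once the dependence on GC content had been fitted in each library and taken out, its log2 fold change was 1.06, with an adjusted p of 0.845 in edgeR.

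The forkhead factor Foxm1, an activator of late cell-cycle genes (ENSMUSG00000001517, chromosome 6, 128362967 to 128376146, plus strand), had 154, 187 and 175 CPM in EpPT2, 156, 155 and 205 CPM in EpPT1, and 141, 143 and 99.9 CPM in Ctrl. Every exposed library lay above every Ctrl library, but the gap between the nearest was small. Its log2 fold change in EpPT2 was 0.43 (SE 0.22, edgeR adjusted p = 0.439). Wee1, the nuclear kinase that acts beside Pkmyt1, averaged 42.7 ± 3.65 CPM in EpPT2 and 49.5 ± 10.2 CPM in Ctrl (SD, n = 3 each), and the opposing phosphatases Cdc25b and Cdc25c differed by 0.10 and 0.03 on the log2 scale. All 3 had overlapping groups.

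Of the 4 genes of cyclins and Cdk1, 3 were below 0 in EpPT2 relative to Ctrl, where 52.1% of tested genes were. All 4 are under 50% GC, a class in which 76.8% of tested genes were below 0. Their median log2 fold change was −0.25. Ccnb1, which encodes cyclin B1 (ENSMUSG00000041431, chromosome 13, 100778650 to 100786570, minus strand), had 228, 186 and 173 CPM in EpPT2, 312, 216 and 172 CPM in EpPT1, and 321, 266 and 185 CPM in Ctrl. The groups overlapped, and the high-mitochondrial libraries of all 3 groups lay between 172 and 186 CPM. Its log2 fold change in EpPT2 was −0.40 (SE 0.28, edgeR adjusted p = 0.551). Cdk1 (ENSMUSG00000019942, chromosome 10, 69335146 to 69352938, minus strand) had 315, 238 and 239 CPM in EpPT2, 296, 296 and 235 CPM in EpPT1, and 265, 274 and 181 CPM in Ctrl, a log2 fold change of 0.14 in EpPT2 (SE 0.23, edgeR adjusted p = 0.816). Within each group its high-mitochondrial libraries were again the lowest. Ccna2 and Ccnb2 gave −0.47 and −0.10.

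Among the mitotic kinases, Bub1 and Plk1 lay on opposite sides. Bub1, a checkpoint kinase that recruits other proteins to kinetochores (ENSMUSG00000027379, chromosome 2, 127801122 to 127831865, minus strand), had 48.6, 53.0 and 54.5 CPM in EpPT2, 94.4, 53.5 and 52.3 CPM in EpPT1, and 93.0, 99.3 and 68.7 CPM in Ctrl. All EpPT2 libraries lay below all Ctrl libraries, while EpPT1 1 was at the Ctrl level and the other EpPT1 libraries at the EpPT2 level. The log2 fold change in EpPT2 was −0.74 (SE 0.27, edgeR adjusted p = 0.376). Plk1, the polo-like kinase of mitotic entry and spindle assembly (ENSMUSG00000030867, chromosome 7, 122159439 to 122169873, plus strand), had 102, 77.5 and 73.4 CPM in EpPT2, 72.6, 101 and 71.7 CPM in EpPT1, and 62.2, 74.7 and 38.7 CPM in Ctrl, a log2 fold change of 0.52 in EpPT2 (SE 0.28, edgeR adjusted p = 0.450). Its groups overlapped through Ctrl 2. Aurka, the centrosomal Aurora kinase (ENSMUSG00000027496, chromosome 2, 172356190 to 172370535, minus strand), had 100, 83.7 and 87.3 CPM in EpPT2, 121, 94.7 and 78.2 CPM in EpPT1, and 108, 118 and 56.6 CPM in Ctrl. Ctrl 3 lay below every exposed library and the other Ctrl libraries above every EpPT2 library, and the log2 fold change in EpPT2 was −0.06 (SE 0.29, edgeR adjusted p = 0.940). Aurkb, the kinase of the chromosomal passenger complex, gave 0.13 and Ttk −0.40.

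Some kinetochore and checkpoint genes were among the lowest, while others lay near 0. Ndc80, the microtubule-binding subunit of the outer kinetochore (ENSMUSG00000024056, chromosome 17, 71496100 to 71526857, minus strand), had 52.5, 53.6 and 51.2 CPM in EpPT2, 89.7, 54.4 and 44.4 CPM in EpPT1, and 84.0, 94.0 and 87.2 CPM in Ctrl. The EpPT2 libraries lay within 3 CPM of each other and below every Ctrl library, and EpPT1 1 was again at the Ctrl level. The log2 fold change in EpPT2 was −0.75 (SE 0.26, edgeR adjusted p = 0.376). Mad2l1, whose protein carries the wait signal of the checkpoint to Cdc20 (ENSMUSG00000029910, chromosome 6, 66535390 to 66547220, plus strand), had 206, 154 and 155 CPM in EpPT2, 284, 211 and 140 CPM in EpPT1, and 327, 234 and 257 CPM in Ctrl. All EpPT2 libraries lay below the lowest Ctrl library, and the log2 fold change was −0.67 (SE 0.28, edgeR adjusted p = 0.388). Of the Ndc80 complex partners, Spc25 gave −0.72 and Nuf2 −0.45, the kinetochore motor Cenpe −0.36 and the kinetochore protein gene Cenpf −0.16, all with overlapping groups. Cenpa (0.16), Cdc20 (0.21), Ube2c (0.02) and the checkpoint protein gene Bub1b (−0.22) lay near 0.

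All 4 spindle genes and all 5 cytokinesis genes had log2 fold changes below 0, where 52.1% of tested genes had. All of them are under 50% GC, from 41.3% for Ect2 to 48.9% for Kif20a. Of all tested genes under 50% GC, 76.8% were below 0. In edgeR, 1 of each role had an unadjusted p under 0.05, where 5.31% of tested genes were lower at that p. Hmmr, a microtubule-associated protein of the spindle poles and also a hyaluronan receptor (ENSMUSG00000020330, chromosome 11, 40701395 to 40733422, minus strand), had 67.3, 36.3 and 37.1 CPM in EpPT2, 107, 66.9 and 43.1 CPM in EpPT1, and 137, 97.3 and 59.4 CPM in Ctrl. The groups overlapped, since EpPT2 1 lay above Ctrl 3, and the log2 fold change in EpPT2 was −1.06 (SE 0.41, edgeR adjusted p = 0.376). Nusap1, which bundles spindle microtubules (ENSMUSG00000027306, chromosome 2, 119618298 to 119651244, plus strand), had 78.7, 56.6 and 61.8 CPM in EpPT2, 149, 82.7 and 51.9 CPM in EpPT1, and 143, 141 and 70.9 CPM in Ctrl, a log2 fold change of −0.85 in EpPT2 (SE 0.39, edgeR adjusted p = 0.412). EpPT2 1 lay above Ctrl 3 here too. The spindle motor Kif11 gave −0.35 and Tpx2, the activator of Aurora A, −0.37.

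Anln, which encodes the actin-binding ring protein anillin (ENSMUSG00000036777, chromosome 9, 22332012 to 22389188, minus strand), had 216, 188 and 180 CPM in EpPT2, 320, 222 and 178 CPM in EpPT1, and 359, 296 and 252 CPM in Ctrl. All EpPT2 libraries lay below all Ctrl libraries, and the log2 fold change was −0.63 (SE 0.25, edgeR adjusted p = 0.382). Of the other cytokinesis genes, the midzone bundler Prc1 gave −0.59, the kinesins Kif20a and Kif23 −0.56 and −0.37, and Ect2, the activator of RhoA at the cleavage site, −0.53. Top2a, which untangles sister chromatids (ENSMUSG00000020914, chromosome 11, 98992943 to 99024189, minus strand), had 475, 434 and 442 CPM in EpPT2, 676, 488 and 381 CPM in EpPT1, and 728, 702 and 465 CPM in Ctrl, a log2 fold change of −0.49 in EpPT2 (SE 0.26, edgeR adjusted p = 0.452). It overlapped through Ctrl 3. For Mki67 (ENSMUSG00000031004, chromosome 7, 135689784 to 135716361, minus strand) the log2 fold change in EpPT2 was 0.47 (SE 0.34, edgeR adjusted p = 0.557). The passenger complex genes Birc5 (survivin) and Cdca8 (borealin) gave −0.52 and 0.28, and Cdca3, a mitotic entry factor, 0.08.

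**Figure D3:**
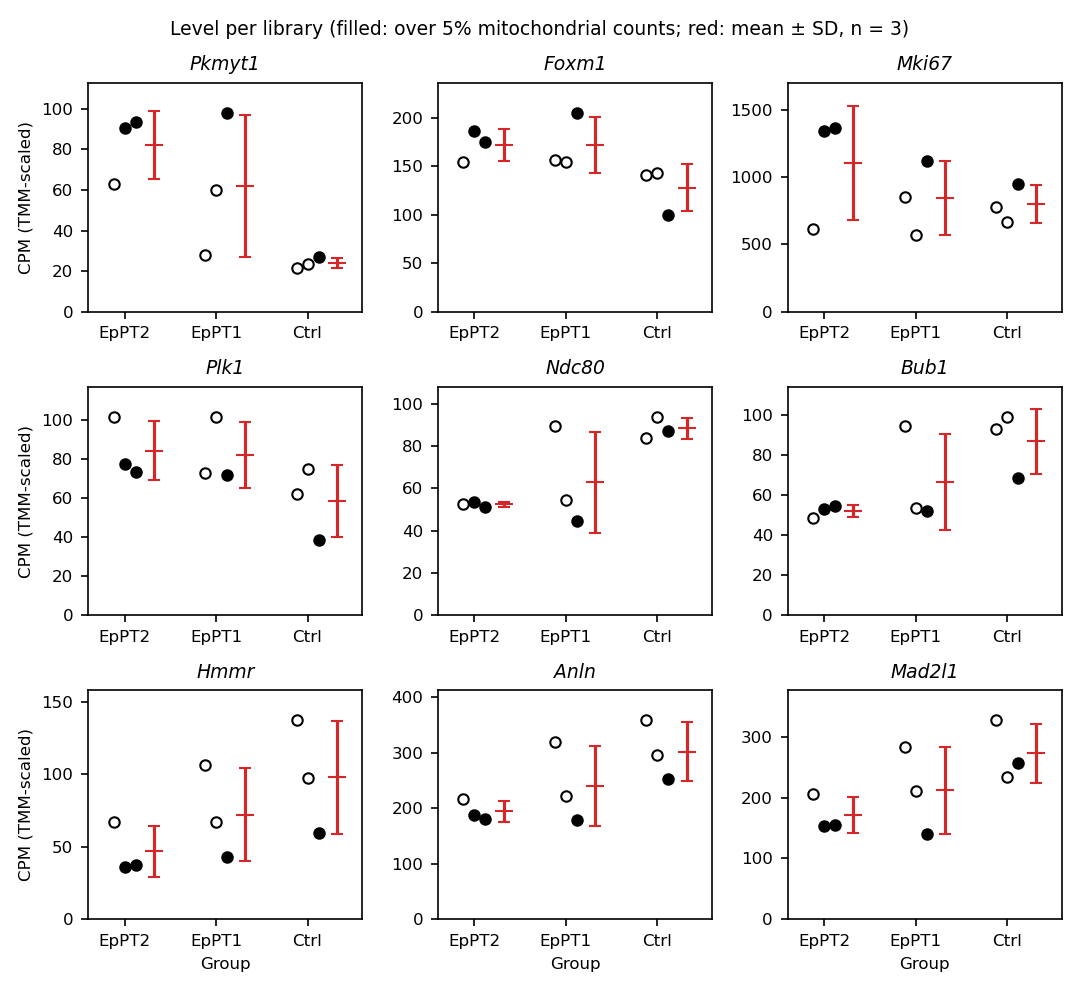
CPM in each library for 9 of the genes, by group, with filled points for libraries with over 5% mitochondrial counts and red bars for the mean ± SD of 3 libraries. EpPT2 libraries of Ndc80 and Bub1 sit between 48.6 and 54.5 CPM, below all Ctrl libraries, and EpPT1 1 sits near Ctrl in each of the 5 lower genes.

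Because EpPT2 held 2 high-mitochondrial libraries and Ctrl 1, the comparison was repeated within libraries of like mitochondrial share, called like libraries here. They were not alike in the slope of log2 expression on GC content. Per 10 percentage points it was 0.21 in EpPT2 1 against −0.52 and −0.24 in Ctrl 1 and Ctrl 2. In EpPT2 2 and EpPT2 3 it was 0.31 and 0.29, against −0.25 in Ctrl 3. In the low-mitochondrial libraries, 27 of the 38 genes were lower in EpPT2 1 than in the mean of Ctrl 1 and Ctrl 2, with a median log2 ratio of −0.33. In the high-mitochondrial libraries, 12 were lower and 26 higher in the mean of EpPT2 2 and EpPT2 3 than in Ctrl 3, with a median of 0.13. All tested genes gave medians of −0.02 and 0.00, and 51.3% and 49.9% of them were lower in EpPT2. Lower in both were 12 genes, higher in both were 11, and 15 were lower in the low-mitochondrial and higher in the high-mitochondrial libraries.

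Single genes differed in this. Ndc80 gave log2 ratios of −0.76 and −0.73 in the low-mitochondrial and high-mitochondrial libraries, Hmmr −0.80 and −0.69, Mad2l1 −0.45 and −0.73, Anln −0.60 and −0.45, and Bub1 −0.99 and −0.35. Pkmyt1 gave 1.48 and 1.78, Plk1 0.57 and 0.96, and Foxm1 0.12 and 0.86. These ratios reuse the libraries of the main comparison. For Ndc80, Mad2l1, Anln, Bub1, Pkmyt1 and Foxm1, whose EpPT2 and Ctrl libraries did not overlap, the same sign in both was fixed in advance. The kinetochore genes Cenpf (−0.74 and 0.26) and Cenpe (−0.77 and 0.15), the motor Kif11 (−0.63 and 0.13) and Prc1 (−0.63 and 0.08) had opposite signs, as had Mki67 (−0.23 and 0.51) and Aurka (−0.17 and 0.59). Each value rests on 1 library on one side. In the edgeR fit of the 5 low-mitochondrial libraries, where EpPT2 1 is assumed to vary like the other groups, the standard errors of the members were 0.33 to 0.46. There Pkmyt1 and Bub1 had an unadjusted p under 0.05, as had 3.91% of genes, each with an adjusted p of 0.919. The high-mitochondrial libraries leave 1 residual degree of freedom and were not tested.

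**Figure D4:**
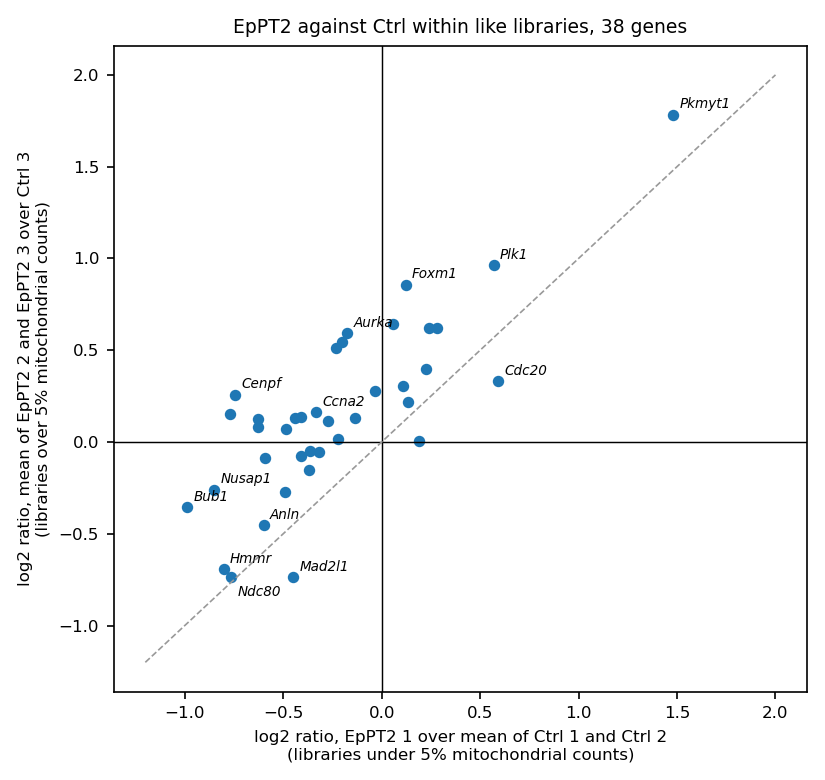
EpPT2 against Ctrl for each of the 38 genes within libraries of like mitochondrial share: log2 ratio of CPM in the low-mitochondrial libraries (x axis) and in the high-mitochondrial libraries (y axis), with the line of equality dashed. Ndc80, Hmmr, Anln, Mad2l1 and Bub1 lie below 0 on both axes, Pkmyt1, Plk1 and Foxm1 above 0 on both, and 15 genes lie in the upper left. Of those named, all but Hmmr and Plk1 had no overlap between EpPT2 and Ctrl, which fixes the same sign on both axes.

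The direction of the fold changes also followed base composition. The slope of log2 expression on GC content over all genes was 0.21, 0.31 and 0.29 per 10 percentage points in EpPT2 1 to 3, −0.38, 0.20 and 0.39 in EpPT1 1 to 3, and −0.52, −0.24 and −0.25 in Ctrl 1 to 3, so EpPT1 1 resembled Ctrl in this too. The mitotic genes span 40.6% to 58.7% GC, with a median of 46.8%, against 49.8% for all tested genes. Of the 27 members under 50% GC, 24 were below 0 in EpPT2 relative to Ctrl, as were 76.8% of all tested genes under 50% GC. Of the 11 members over 50% GC, 1 (Aurka) was below 0 and 10 above it, and 26.2% of all tested genes over 50% were below 0. The medians were −0.45 and 0.16 for the members and −0.30 and 0.31 for all tested genes of those classes.

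With the GC dependence of each library taken out, the member median in EpPT2 relative to Ctrl was −0.14, against −0.07 for all tested genes, with 28 of the 38 below 0. Hmmr then gave −0.69, Nusap1 −0.50, Ndc80 −0.43, Bub1 −0.36, Mad2l1 −0.28 and Anln −0.26, Plk1 gave 0.04 and Foxm1 0.10. Mki67 gave 0.66 and Pkmyt1 1.06. Pkmyt1 was the 1 member at an unadjusted p under 0.05 in edgeR, where 5.69% of tested genes were. When the fit held each library's mitochondrial share, in place of the GC term, the median was −0.18. In that fit 9 members (of 38) had an unadjusted p under 0.05, as had 24.4% of all tested genes, a like share, and 0 had an adjusted p under 0.05 in edgeR.

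**Figure D5:**
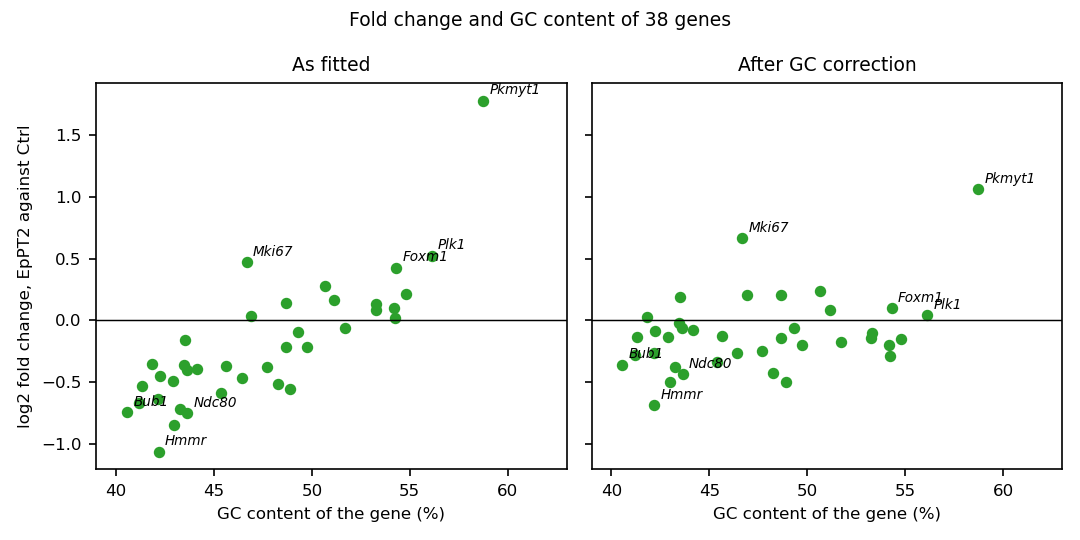
Log2 fold change of each of the 38 genes in EpPT2 relative to Ctrl against the GC content of the gene in percent, as fitted (left) and with the GC dependence of each library taken out (right). On the left most genes under 50% GC lie below 0 and most over 50% above it; on the right Pkmyt1 and Mki67 are the highest at 1.06 and 0.66 and Hmmr the lowest at −0.69.

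In EpPT1 relative to Ctrl, the comparison with the lower labelled fluence, Pkmyt1 was 2.59-fold higher, and the other members had log2 fold changes between −0.49 for Ndc80 and 0.48 for Plk1. The values use the same Ctrl libraries as before. edgeR and limma-voom called 0 genes (0%), with a lowest adjusted p of 0.991 in edgeR, where 568 genes had an unadjusted p under 0.05. At an unadjusted p under 0.05 it gave Pkmyt1 as higher, where 3.01% of tested genes were, and 0 of the 38 as lower, where 0.919% were. Pkmyt1 and Foxm1 lay above Ctrl in all EpPT1 libraries, as did 2.73% of tested genes, and 0 members lay below it in all, where 2.53% did. The log2 fold change was −0.5 or less for 0 members, where it was for 8.88% of tested genes, and 0.5 or more for Pkmyt1 alone, where it was for 13.9%. The fold change was below 0 for 25 of the 38 genes, against 52% of tested genes, and the median was −0.12, against −0.02. Of the 27 members under 50% GC, 24 were below 0, against 76.5% of tested genes of that class. Of the 11 members over 50% GC, 1 was below 0, against 26.2% of such tested genes. With the GC dependence of each library taken out, the median was −0.03 for the members and −0.03 for all tested genes.

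Pkmyt1 averaged 62.0 ± 35.2 CPM in EpPT1 and 23.9 ± 2.62 CPM in Ctrl (SD, n = 3 each), a log2 fold change of 1.37 (SE 0.39). EpPT1 3 was near EpPT2 2 and EpPT2 3, while EpPT1 1 was near Ctrl, so the spread within EpPT1 was wide. edgeR gave it an adjusted p of 0.991, and 0.028 without the filter on low counts, a setting that called 32 genes (0.111%); the adjusted p ranged from 0.028 to 1.00 over all alternatives. DESeq2 called 1 gene (0.00691%), not a member. Foxm1 gave 0.43 (SE 0.22), Plk1 0.48 (SE 0.28) and Cdca8, with 98.1, 112 and 89.9 CPM in EpPT1 against 93.0, 93.6 and 60.8 CPM in Ctrl, 0.28 (SE 0.23).

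On the lower side of EpPT1, Ndc80 gave −0.49 (SE 0.26), Bub1 −0.38 (SE 0.27), Mad2l1 −0.36 (SE 0.28) and Anln −0.33 (SE 0.25), each with an edgeR adjusted p of 0.991 and overlapping groups. In each of them EpPT1 1 lay within the Ctrl range while EpPT1 3 lay below it. Top2a gave −0.29 (SE 0.26), Ccnb1 −0.14 (SE 0.28), Cdk1 0.20 (SE 0.23), Mki67 0.08 (SE 0.34) and Aurka 0.05 (SE 0.29), each with an edgeR adjusted p of 0.991 or above. Without EpPT1 1 the member median was −0.39, with 6 members at an unadjusted p under 0.05 in edgeR, near the 13.3% of all genes in that fit, and without EpPT1 3 it was 0.06 with 1 member, against 1.70% of genes. Without Ctrl 1 it was 0.06 and without Ctrl 3 −0.30, so single libraries set the direction of this median.

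EpPT2 relative to EpPT1 showed no member at an unadjusted p under 0.05 in edgeR, in either direction, where 0.145% of tested genes were lower and 0.0691% higher. edgeR, DESeq2 and limma-voom called 0 genes (0%), with 31 at an unadjusted p under 0.05 in edgeR, and edgeR called 2 genes (0.00696%), neither of them a member, without the filter on low counts. All members had overlapping groups, whereas 1.2% of tested genes lay lower and 1.26% higher without overlap. The log2 fold change was −0.5 or less for Hmmr and Nusap1, as for 5.28% of tested genes, and 0.5 or more for 0 members, where it was for 6.79%. The fold change was below 0 for 29 of the 38 genes, against 51.7% of tested genes, with a median of −0.17, against −0.01. Hmmr gave −0.62 (SE 0.41), Nusap1 −0.53 (SE 0.39), Bub1 −0.36 (SE 0.27), Anln −0.30 (SE 0.25) and Mad2l1 −0.30 (SE 0.28). Birc5, with 139, 91.4 and 91.2 CPM in EpPT2 against 199, 125 and 88.8 CPM in EpPT1, gave −0.36 (SE 0.34). Mki67 gave 0.39 (SE 0.34) and Pkmyt1 0.41 (SE 0.38). Without EpPT1 1 the median was 0.00, without EpPT1 3 it was −0.35 and without EpPT2 1 it was −0.29, the last 2 with 2 members each at an unadjusted p under 0.05, against 4.77% and 1.22% of genes. In the low-mitochondrial libraries 25 of the 38 genes were lower in EpPT2 1 than in the mean of EpPT1 1 and EpPT1 2 (median −0.15), where 50.2% of tested genes were. In the high-mitochondrial libraries 4 were lower and 34 higher in the mean of EpPT2 2 and EpPT2 3 than in EpPT1 3 (median 0.13), where 48.9% of tested genes were lower.

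Other genes of cell division were followed as 11 further lists, with no gene past edgeR's adjusted test in any comparison. In EpPT2 relative to Ctrl, 6 of 8 condensin genes were below 0, with a median log2 fold change of −0.42, and 11 of 13 genes of cohesin, separase and their protectors, also with −0.42, against a median of −0.03 over all tested genes. The condensin subunit Ncapg gave −0.66 (SE 0.28), the cohesin subunit Stag2 −1.02 (SE 0.39) and the cohesin release factor Wapl −0.52 (SE 0.20). Of 30 other kinetochore and centromere genes 23 were below 0 (median −0.31), of 29 other spindle and kinesin genes 22 (median −0.22), and of 9 other cytokinesis genes 7 (median −0.21). The centrosome gene Cep192 gave −0.61 (SE 0.20), the kinesin Kif20b −0.80 (SE 0.30) and Septin7 −0.83 (SE 0.27), while the minus-end motor Kifc1 gave 0.71 (SE 0.26). Of 5 other checkpoint and passenger genes 2 were below 0, and the passenger scaffold Incenp gave 0.85 (SE 0.24), the smallest unadjusted p of these lists at 0.0055.

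The switch genes that set entry into and exit from mitosis were below 0 in 10 of 14 cases (median −0.21), led by Mastl, the kinase that restrains the phosphatase PP2A in mitosis, at −1.09 (SE 0.38). Of 17 genes of the anaphase-promoting complex and its regulators 11 were below 0 (median −0.15), with the subunit Cdc27 at −0.69 (SE 0.28) and the chain-extending enzyme Ube2s at 0.55 (SE 0.24). Of the 12 MuvB and Myb genes 10 were below 0 (median −0.26), with Mybl1 at −0.86 (SE 0.27) and the DNA-binding subunit Lin54 at −0.68 (SE 0.25), while B-Myb itself (Mybl2) gave 0.31 (SE 0.42). Of 26 G1/S and replication genes 18 were below 0 (median −0.20), with Pcna at −0.31 (SE 0.21) and the activator E2f1 at 0.68 (SE 0.26). The mean log2 level of the G1/S list, relative to each gene's mean, was 0.40, −0.40 and −0.39 in EpPT2 1 to 3, 0.37, 0.41 and −0.42 in EpPT1 1 to 3, and 0.38, 0.25 and −0.59 in Ctrl 1 to 3. It was thus low in the high-mitochondrial libraries of every group, and within like libraries EpPT2 was not below Ctrl. The condensin list lay between −0.44 and −0.28 in the high-mitochondrial and 0.12 and 0.56 in the low-mitochondrial libraries, and the other kinetochore genes between −0.48 and −0.34 and between 0.22 and 0.49. The part of this difference in the list medians was not tested. The inhibitors and quiescence genes had a median of −0.06 over 11 tested of 14, and Cdkn1a, the p53-induced Cdk inhibitor, gave 0.06 (SE 0.27), with 205 CPM in EpPT2 and 196 CPM in Ctrl on average. The genes named above 0 in these lists other than Mybl2 and Cdkn1a had 50.3% to 58.1% GC, and those named below 0 had 36.5% to 43.1%. At an unadjusted p under 0.05, edgeR gave 6 of the spindle and kinesin genes as lower and 1 as higher, 3 of the cohesin and 3 of the MuvB and Myb genes as lower, and at most 2 in a direction in each of the other lists, where 5.31% of all tested genes were lower and 6.88% higher. In EpPT1 relative to Ctrl the medians of the 11 lists lay between −0.27 for condensin and 0.08 for the checkpoint and the G1/S genes.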

How the data were processed

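Total RNA from HC11 cells, extracted with Trizol per the labels' protocols, was sequenced in 9 libraries, 3 per group. The authors deposited raw read counts per gene, with gene coordinates. Bowtie 0.12.2 and the build mm8 are named in the submitters' processing notes, but start and end of 98.3% of 54495 shared gene IDs, and of 36 of the 38 members, equal GENCODE M21 (GRCm38), so coordinates are given as GRCm38. The counter is not given in the sources, nor its strand setting.

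The members and lists were chosen with earlier results of these data known, so no p-value is given over a list. Counts were scaled by TMM, filtered with filterByExpr and tested with edgeR 4.0.16 (quasi-likelihood, all 9 libraries, group as the only term, 6 residual degrees of freedom, R 4.3.3). P-values were adjusted by Benjamini-Hochberg over 14471 genes, two-sided, with a threshold of 0.05. The biological coefficient of variation was 39.3%. DESeq2 1.42.0, limma-voom (limma 3.58.1), other scalings and filters, leaving out each library, a replicate block, a spline on GC content (5 degrees of freedom) and a mitochondrial covariate were alternatives. The fit on high-mitochondrial libraries was added after the data were seen. Fits were tested on simulated data. Members printed with SE and adjusted p were up to 8 per comparison with the smallest p, plus Mki67, Ccnb1, Cdk1, Top2a, Foxm1, Plk1 and Aurka. Of the other lists, the genes named are from the 3 with the smallest p in EpPT2 relative to Ctrl, plus Cdkn1a, Mybl2 and Pcna.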

Additional observations from a re-analysis of the deposited data

How the results depend on the processing

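Genes called by edgeR at an adjusted p under 0.05 numbered 268, 32 and 2 without the filter on low counts, in EpPT2 relative to Ctrl, EpPT1 relative to Ctrl and EpPT2 relative to EpPT1, and DESeq2 called 61 and 1 in the comparisons with Ctrl; leaving out a library gave 0 to 2 in EpPT2 relative to Ctrl (2 without EpPT1 1) and 0 in the others. Leaving out a library, the member median ranged from −0.53 to −0.09, from −0.39 to 0.06 and from −0.35 to 0.00 in the same order of comparisons. In the high-mitochondrial libraries alone it was 0.14 for EpPT2 relative to Ctrl and 0.13 for EpPT2 relative to EpPT1. The labels give no pairing. In deviations from the group means, same-numbered libraries correlated from −0.64 to 0.73 and unlike-numbered libraries from −0.77 to 0.75. Pairs numbered 3, all high-mitochondrial, gave 0.63 to 0.73, and in them number and mitochondrial share coincide. EpPT2 2 gave 0.64 with Ctrl 3 and 0.67 with EpPT1 3, which have another number but a like share. With Ctrl 2 and EpPT1 2, which have the same number but an unlike share, it gave −0.16 and −0.64. A replicate block gave medians of −0.32, −0.12 and −0.13 and changed no call at an adjusted p under 0.05. It gave 11, 3 and 1 members at an unadjusted p under 0.05, against 21.1%, 6.54% and 1.20% of tested genes.

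Of 861 alternatives for single named members, 807 kept direction and call, 51 reversed the sign and 3 put Pkmyt1 past the threshold. In EpPT2 relative to Ctrl, Mki67 was −0.21 in the low-mitochondrial libraries, and Aurka was 0.0022 with limma-voom, 0.11 with the mitochondrial covariate and 0.61 in the high-mitochondrial libraries. In EpPT1 relative to Ctrl, Mki67 was −0.020 and Aurka −0.062 in the low-mitochondrial libraries, Aurka was −0.017 and Ccnb1 0.051 with the GC correction, and Ccnb1 was 0.060 with the GC correction and the replicate block. In EpPT2 relative to EpPT1, the high-mitochondrial libraries gave Nusap1 0.19, Bub1 0.040, Anln 0.047, Mad2l1 0.14, Birc5 0.042, Pkmyt1 −0.090, Ccnb1 0.063, Cdk1 0.022, Top2a 0.20 and Aurka 0.13. There, Mki67 was −0.19 and Cdk1 0.094 in the low-mitochondrial libraries, Cdk1 was 0.054 and Aurka 0.056 with the mitochondrial covariate, and Plk1 was −0.14 with the GC correction and −0.12 with the replicate block added. Foxm1, at 0.00, was 0.0077 with DESeq2 size factors, 0.0054 without the filter, 0.026 with a filter of 5 CPM, 0.0078 with DESeq2 and 0.0085 with limma-voom. Leaving out a library, the range was −0.030 to 0.24 for Cdk1 and −0.33 to 0.13 for Aurka in EpPT2 relative to Ctrl. It was −0.17 to 0.30 for Mki67, −0.42 to 0.052 for Ccnb1 and −0.21 to 0.25 for Aurka in EpPT1 relative to Ctrl. In EpPT2 relative to EpPT1 it was −0.60 to 0.0074 for Birc5, −0.43 to 0.019 for Ccnb1, −0.22 to 0.0063 for Cdk1, −0.37 to 0.059 for Top2a, −0.070 to 0.14 for Foxm1, −0.12 to 0.22 for Plk1 and −0.25 to 0.072 for Aurka. The cause of these changes was not tested. With 3 libraries a group, the median standard error of the members was 0.28 on the log2 scale.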
